A study of Mus musculus with 12 samples.

Results

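The stretch of mouse chromosome 4 from 115 to 122.4 Mb (build mm9) was described through the Nfib binding sites, or peaks, that were found there in 2 tumour lines. Members were all peaks with a start in that range, which gave 265 of 24905 peaks of the line KP1 and 55 of 10120 peaks of the line KP22, or 320 of 35025 in all. The range was chosen on measured values, since earlier counts from these lists showed many KP1 peaks there, so the excess of KP1 over KP22 peaks is a description of the choice and was given no test. The lines are tumour-derived mouse small cell lung cancer lines that grow as floating spheres, and all carry the genotype Trp53-/-;Rb1-/-, so no line with intact Trp53 or Rb1 was compared. KP1 is labelled Nfib high and KP22 Nfib low. Another Nfib high line, 16T, entered no comparison, since its deposited list holds no peak positions (0 intervals). The peaks of 16T are therefore unknown, and the 0 is not a count of its binding sites. Each of the 3 lines had 2 input libraries and 2 Nfib pulldown libraries, and each peak list stands for 1 line, with no value per library and no replicate of a peak count. The depth of the libraries is unknown from the files, so a difference in depth between the lines cannot be told apart from a difference in binding over the whole genome. Counts are therefore also given as ratios of shares, the share of the KP1 list divided by the share of the KP22 list. In this ratio an excess that is the same over the whole genome cancels. An effect of depth that differs between regions would not cancel and was not tested. The intervals given are 95% and exact (binomial). They reflect counting error alone and take each peak as an independent event.

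Nfib is one of the nuclear factor I proteins, a family of transcription factors. They bind DNA as dimers at a palindromic site and can bind a single arm of it more weakly. Nfib itself lies on chromosome 4, as does Mycl, a member of the Myc family of transcription factors, and both are known to be gained in copy number in tumours of mouse models of small cell lung cancer. The places of these genes relative to the segment were not read, because no gene annotation of the build mm9 was at hand. In a peak list of this kind, an interval marks where pulldown reads pile up over the background, and a stronger signal commonly gives a wider interval. The copy number of chromosome 4 in these lines was not analysed here, so more binding per copy and more copies in KP1 cannot be told apart.

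Both lines had more peaks in the segment than in most windows of its length, and KP1 more so. The 265 KP1 peaks made up 1.06% of the KP1 list (0.940 to 1.20) and the 55 KP22 peaks 0.543% of the KP22 list (0.410 to 0.707). The ratio of shares was 1.96 (1.46 to 2.67), and it was 3.45 (1.91 to 6.86) with peaks of at least 300 bases only, of which KP1 had 128 and KP22 had 12. The window of the same length just before the segment held 40 KP1 and 23 KP22 peaks, with a ratio of 0.707 (0.413 to 1.24). The window of the same length just after it held 255 and 99, with a ratio of 1.05 (0.827 to 1.33), so KP1 peaks were about as frequent there and KP22 peaks more so. Over the rest of chromosome 4 the ratio was 0.951 (0.875 to 1.03).

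The segment was set beside 322 other windows of 7.4 Mb on the autosomes. Its KP1 count was exceeded in 2 of them and its KP22 count in 27, against medians of 64 KP1 and 25 KP22 peaks. The highest KP1 count, 303, was also on chromosome 4, in the window that starts at 129.8 Mb. The chromosome 4 windows that start at 122.4 and 137.2 Mb came close to the segment, with a KP1 count of 255 each. High KP1 density was thus not limited to the segment. The ratios of shares in these windows were lower, at 0.815, 1.05 and 0.751 in the order named. Among the 210 other windows with at least 20 KP22 peaks, the ratio of shares ran from 0.465 to 1.74, so none reached the ratio of the segment. Because the segment was chosen for its KP1 peaks, a high rank by KP1 count or by this ratio follows from the choice. The windows of chromosome 4 were laid out from the bounds of the segment, those of the other autosomes from the chromosome start. Among the 112 windows with fewer KP22 peaks, 8 had a higher ratio. One of these also lay on chromosome 4, from 78 to 85.4 Mb, with 128 KP1 and 18 KP22 peaks and a ratio of 2.89 (1.76 to 5.03).

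**Figure D1:**
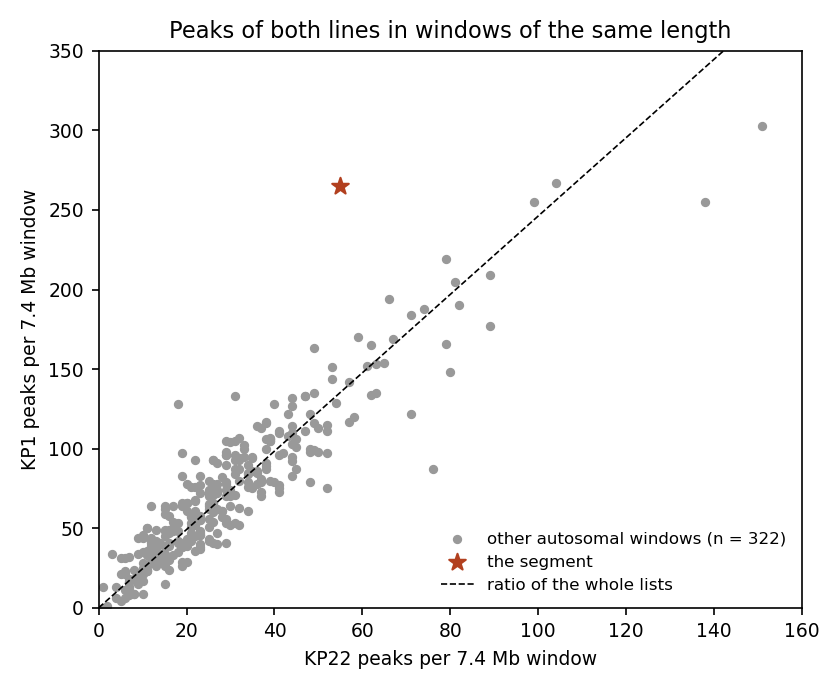
Number of KP22 peaks (x axis) and KP1 peaks (y axis) in windows of 7.4 Mb on the autosomes, 1 point per window, with the segment as a star and the ratio of the whole lists as a dashed line. The segment, at 55 KP22 and 265 KP1 peaks, was chosen for its KP1 peaks and lies well above the line that most windows follow.

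In steps of 200 kb, the KP1 peaks of the segment fell into a dense part and a less dense part on either side of it. Of the 37 steps, 29 held more KP1 than KP22 peaks, 3 held equal numbers, 5 were empty in both lists, and in 0 steps did KP22 have more. Peaks of KP1 alone filled 10 steps. A step was counted as KP1-rich when it held at least 7 KP1 peaks, the 95th percentile over 12349 autosomal steps, of which 6.15% reached it. In the segment 12 of 37 steps reached it, and all 12 lay in 1 run of 13 steps from 118.2 to 120.8 Mb. This KP1-rich stretch of 2.6 Mb held 210 of the 265 KP1 peaks (79.2%) and 36 of the 55 KP22 peaks (65.5%). The density was 80.8 KP1 peaks per Mb in the stretch, against 14.1 in the part of the segment before it and 6.25 in the part after it. KP22 peaks followed the same order at lower values, with 13.8, 5 and 1.88 per Mb. The steps of the segment outside the stretch were not poor in KP1 peaks, with a median of 2, against 1 over all autosomal steps. The ratio of shares was 2.37 (1.66 to 3.48) in the stretch, 1.14 (0.634 to 2.17) before it and 1.35 (0.349 to 7.66) after it. The stretch was set by KP1 counts, so a higher ratio in it than beside it follows from how it was placed. The intervals of both parts beside the stretch include 1. An excess of KP1 over KP22 is therefore not shown there, and the ratio is not well measured.

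**Figure D2:**
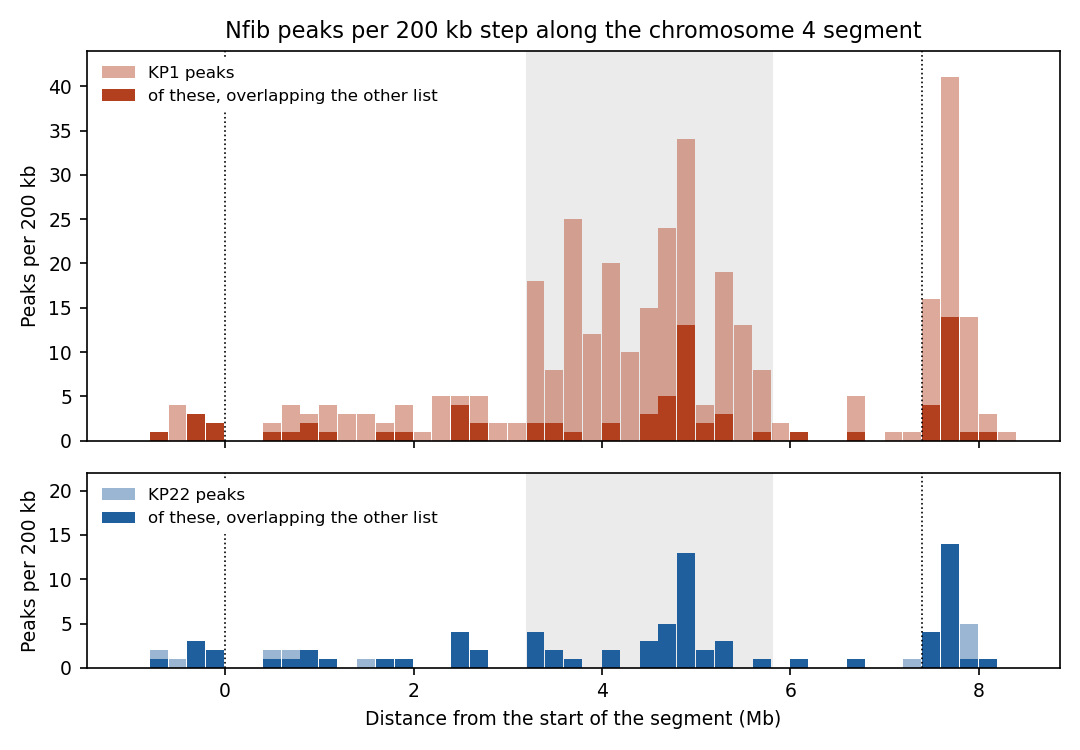
Number of KP1 peaks (upper panel) and KP22 peaks (lower panel) per step of 200 kb, against the distance from the start of the segment in Mb. Dotted lines bound the segment, grey marks the KP1-rich stretch, and the dark part of each bar is the peaks that overlap a peak of the other list. KP1 counts of the stretch run from 4 to 34 per step, and nearly all KP22 bars are dark.

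The part before the stretch came first. The steps from 115 to 115.4 Mb held 0 peaks in both lists. From there to 118.2 Mb each step held 1 to 5 KP1 peaks and 0 to 4 KP22 peaks, against autosomal medians of 1 and 0 per step. At the upper end, 5 KP1 peaks were exceeded in 1140 of the 12349 autosomal steps. In the step from 117.4 to 117.6 Mb, 5 KP1 peaks stood beside 4 KP22 peaks, of which 4 in each list overlapped. The last steps before the dense part, from 117.8 to 118 and from 118 to 118.2 Mb, held 2 KP1 peaks each and 0 KP22 peaks.

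The left edge of the stretch was abrupt on the scale of a step. The last KP1 peak before it lay from 118180284 to 118180543 and the first one in it from 118205952 to 118206122, with a gap of 25.4 kb. Neither overlapped a KP22 peak. The 1 Mb below the edge held 19 KP1 and 6 KP22 peaks, and the 1 Mb above it held 83 and 9. The edge was set by KP1 counts, so a larger change in KP1 than in KP22 follows from how it was placed. The first step inside, from 118.2 to 118.4 Mb, held 18 KP1 peaks, a number that 15 of the 12349 autosomal steps exceeded.

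The right edge was more gradual. The last 4 steps of the stretch, from 120 to 120.8 Mb, held 4, 19, 13 and 8 KP1 peaks, and the next 2 steps held 2 and 1. The last KP1 peak of the stretch lay from 120770638 to 120770917 and the first one after it from 120887543 to 120887898, with a gap of 117 kb. The 1 Mb below this edge held 78 KP1 and 19 KP22 peaks, against 8 and 2 in the 1 Mb above it, so here both lists thinned out. The count ratios were 4.11 and 4, but the second rests on few peaks and is not well measured. The position of this edge depends on the step size, since steps of 100 kb ended the longest run at 120 Mb, where low counts break it. When a run of peaks was instead scored by its KP1 excess over KP22, with no demand on density, it reached from 115.7 to 125.8 Mb, beyond both edges.

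After the stretch, from 120.8 to 122.4 Mb, the segment held 10 KP1 and 3 KP22 peaks. The steps from 121.2 to 121.6 Mb and from 121.8 to 122 Mb held 0 peaks in both lists, and 5 of the 10 KP1 peaks lay in the step from 121.6 to 121.8 Mb. At the border of the segment the counts rose again. The last step inside held 1 KP1 and 1 KP22 peak, and the 3 steps just outside held 16, 41 and 14 KP1 peaks and 4, 14 and 5 KP22 peaks. On the other border, the first step inside held 0 and 0 peaks and the last one outside held 2 and 2.

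Inside the stretch the balance of the lines was uneven, in runs of steps that were picked after the counts were seen. The first 2 steps, to 118.6 Mb, held 26 KP1 and 6 KP22 peaks. From 118.6 to 119.4 Mb there were 67 KP1 peaks and 3 KP22 peaks, a count ratio of 22.3, against 2.46 for the whole lists. In its step from 118.6 to 118.8 Mb, 25 KP1 peaks stood against 1 KP22 peak, and only 5 autosomal steps held more KP1 peaks. From 119.4 to 120 Mb there were 73 KP1 and 21 KP22 peaks, a count ratio of 3.48. The densest step of both lines lay there, from 119.8 to 120 Mb, with 34 KP1 and 13 KP22 peaks, and in each list 2 autosomal steps held more. From 120 to 120.8 Mb there were 44 KP1 and 6 KP22 peaks. The lines therefore shared their densest step, whereas the 4 steps from 118.6 to 119.4 Mb were dense in KP1 and close to the autosomal median in KP22, with 0 to 2 peaks per step.

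By the number of KP1 peaks, the step from 119.8 to 120 Mb was followed by 118.6 to 118.8 Mb (25), 119.6 to 119.8 Mb (24), 119 to 119.2 Mb (20) and 120.2 to 120.4 Mb (19). By the number of KP22 peaks it was followed by 119.6 to 119.8 Mb with 5 peaks, then by 117.4 to 117.6 Mb and 118.2 to 118.4 Mb with 4 each. Steps with 3 KP22 peaks were those from 119.4 to 119.6 Mb and from 120.2 to 120.4 Mb. Of these 6 KP22 steps, 5 lay in the stretch.

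As a description of the KP1 density by which the segment was chosen, KP1 peaks were put in groups. When peaks within 10 kb of each other were put in 1 group, 94 of the 265 KP1 peaks (35.5%) fell into 14 groups of 5 or more, against 6.20% of the whole KP1 list. No KP22 group of the segment was larger than 3. The largest KP1 group held 13 peaks over 45.4 kb, from 119915379 to 119960780, and 7 of them had at least 500 bases. KP22 had 4 peaks in that group's span. The next largest, from 120359478 to 120387138, held 10 KP1 and 3 KP22 peaks. A group of 7 KP1 peaks from 119085031 to 119100685, another of 7 from 120529692 to 120558983 and one of 6 from 118778469 to 118794293 held 0 KP22 peaks. Dense KP1 groups in the segment thus occurred both with and without KP22 peaks.

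KP1 peaks of the segment were wide, and KP22 peaks were of ordinary width. The median width was 293 bases in KP1 (quartiles 194 and 473), against 232 over the whole KP1 list. In KP22 it was 226 bases (quartiles 179 and 275.5), against 227 over its whole list. Of the KP1 peaks, 56 were wide, here meaning at least 500 bases, which was 21.1% (16.4 to 26.5), against 6.77% of the whole KP1 list. Of the KP22 peaks, 1 reached that width, 1.82% (0.0460 to 9.72), against 3.46% of the whole KP22 list. Among the 299 other windows with at least 20 KP1 peaks, 1 had a higher median KP1 width and a higher share of wide KP1 peaks, the first 7.4 Mb of chromosome 9, where 46 KP1 peaks had a median of 589.5 bases and 56.5% were wide. The medians over the 299 windows were 228.5 bases and 5.56%. The median KP22 width of the segment was exceeded in 104 of the 210 windows with at least 20 KP22 peaks. The window from 78 to 85.4 Mb of chromosome 4 had a KP1 median of 275.5 bases and 18.0% wide peaks. The window from 137.2 to 144.6 Mb, with 255 KP1 peaks, had a median of 281 bases and 17.6% wide peaks. Values were lower from 122.4 to 129.8 Mb (235 bases, 11.4%) and from 129.8 to 137.2 Mb (245 bases, 7.92%).

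The wide KP1 peaks lay in the stretch, which held 51 of the 56. There 24.3% of KP1 peaks were wide, against 2 of 45 peaks before it and 3 of 10 after it. The median KP1 width was 311 bases in the stretch and 260 before it. By step, it was highest from 119.8 to 120 Mb among the steps with at least 5 peaks, at 492.5 bases, and 16 of the 34 peaks there were wide. Low medians also occurred in the stretch, such as 206 bases from 118.2 to 118.4 Mb and 207 from 118.8 to 119 Mb. High KP1 counts and wide KP1 peaks thus did not always go together.

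**Figure D3:**
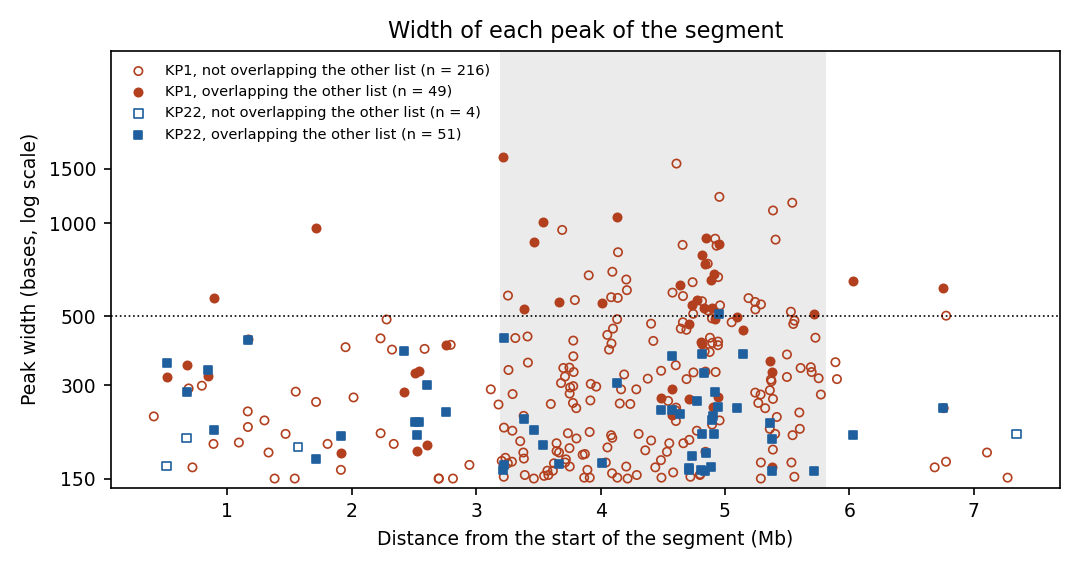
Width of each of the 265 KP1 peaks (circles) and 55 KP22 peaks (squares) in bases, on a log scale, against the distance from the start of the segment in Mb; filled marks overlap the other list, grey marks the KP1-rich stretch and the dotted line 500 bases. The 56 KP1 peaks at or above the line lie mostly in the grey part, and 1 KP22 peak, of 510 bases, is above it.

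The widest KP1 peak of the segment lay near the left edge of the stretch, from 118219710 to 118221342, and spanned 1633 bases. It held 3 KP22 peaks, from 118219896 to 118220055, from 118220571 to 118220736 and from 118220800 to 118221224, with 160, 166 and 425 bases. A single KP1 interval thus covered what was called as 3 separate intervals in KP22. The second widest, from 119610288 to 119611844, had 1557 bases, and the nearest KP22 peak was 28910 bases away. The third, from 119954942 to 119956157, had 1216 bases, and the nearest KP22 peak was 4665 bases away. The fourth, from 120540773 to 120541936, had 1164 bases and the nearest KP22 peak was 165778 bases away. The fifth, from 120386040 to 120387138, had 1099 bases and no KP22 overlap. Of the 10 widest KP1 peaks, 9 lay in the stretch and 5 overlapped no KP22 peak. The smallest of these 10 had 898 bases.

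The 10 widest KP22 peaks had 328 to 510 bases. All 10 overlapped a KP1 peak, and 6 lay in the stretch. The widest, from 119949767 to 119950276 with 510 bases, lay inside a KP1 peak of 859 bases from 119949702 to 119950560. The widest KP22 peak outside the stretch, from 116163768 to 116164186, had 419 bases.

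Nearly all KP22 sites of the segment were also KP1 sites. A KP1 peak shared at least 1 base with 51 of the 55 KP22 peaks, or 92.7% (82.4 to 98.0), against 66.1% of the whole KP22 list. In the stretch it was 36 of 36 (100%, 90.3 to 100). The share was above that of all 210 other windows with at least 20 KP22 peaks, where it reached at most 90.0%. Of the 112 windows with fewer KP22 peaks, 4 had a higher share, the fullest of them with 17 KP22 peaks and 94.1%, and the window from 78 to 85.4 Mb of chromosome 4 had 88.9%. The number of KP1 peaks at hand bears on this share, since more KP1 peaks in a region leave fewer KP22 peaks without a partner. When a reciprocal overlap of at least 50% was required, 47.3% of the KP22 peaks of the segment had a partner, against 54.6% of the whole list. That rule asks for peaks of similar width. When 50% of the shorter peak was required, the share stayed at 92.7%.

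The reverse share was low. A KP22 partner was found for 49 of the 265 KP1 peaks, or 18.5% (14.0 to 23.7), against 26.8% of the whole KP1 list. The segment was chosen for its many KP1 peaks. Its 55 KP22 peaks can give few of 265 KP1 peaks a partner, so nothing is read from this low share. In the stretch it was 34 of 210 (16.2%, 11.5 to 21.9). Of the 216 KP1 peaks without a KP22 partner, 163 were more than 10 kb from the nearest KP22 peak and 13 were within 1 kb.

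The KP22 peaks without a KP1 partner were 4, and 0 of them lay in the stretch. They lay from 115512669 to 115512833 (165 bases), from 115673900 to 115674102 (203 bases), from 116567401 to 116567590 (190 bases) and from 122343455 to 122343663 (209 bases). The first of these was 600 bases from a KP1 peak, and the last 72375 bases. All 4 were narrower than the KP22 median of 226 bases.

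Overlap rose with width in the KP1 peaks of the segment and in the rest of both lists. In KP1, 4 of 73 peaks under 200 bases overlapped KP22 (5.48%, 1.51 to 13.4), against 18.7% in the rest of the list. From 200 to under 300 bases it was 7 of 64 (10.9%, 4.51 to 21.2) against 30.0%, and from 300 to 499 bases 15 of 72 (20.8%, 12.2 to 32.0) against 31.9%. Of the 56 wide KP1 peaks, 23 overlapped KP22 (41.1%, 28.1 to 55.0), against 38.9% in the rest of the list. The excess of KP1 peaks for which the segment was chosen limits these KP1 shares, so they are given as a description of how overlap rose with width. In KP22, 15 of 17 peaks under 200 bases overlapped KP1 (88.2%, 63.6 to 98.5), against 48.8% in the rest of the list, and 24 of 26 peaks of 200 to under 300 bases (92.3%, 74.9 to 99.1) against 68.9%. All 11 KP22 peaks of 300 to 499 bases and the 1 wider one overlapped KP1. Only 4 KP22 peaks of the segment had no partner, so a change with width is not well measured there. The many KP1 peaks at hand bear on these KP22 shares too.

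**Figure D4:**
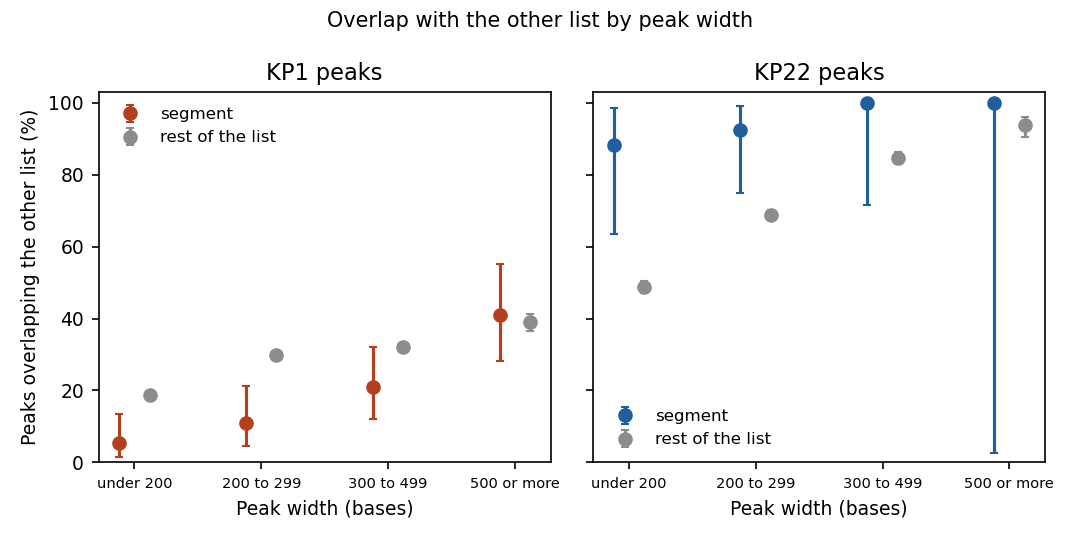
Percent of KP1 peaks (left) and KP22 peaks (right) that overlap the other list, by peak width in bases, in the segment (coloured) and in the rest of the list (grey), with exact 95% intervals. Overlap rises with width in KP1, from 5.48% under 200 bases to 41.1% at 500 or more, and narrow KP22 peaks of the segment stand at 88.2%, against 48.8% in the rest.

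Where both lines had a peak, the KP1 peak was usually the wider one. The 51 overlapping pairs of the segment involved 49 KP1 and 51 KP22 peaks. The KP1 peak was wider in 43 pairs (84.3%), against 51.7% of 6692 pairs elsewhere. The median ratio of KP1 to KP22 width was 1.96 (quartiles 1.14 and 3.24), against 1.02 elsewhere (quartiles 0.787 and 1.37). In the stretch, KP1 was wider in 34 of 36 pairs, with a median ratio of 2.28, and in 30 of them the KP22 peak lay wholly inside the KP1 peak. In the other 15 pairs of the segment, KP1 was wider in 9, with a median ratio of 1.22. In the window just after the segment it was wider in 32 of 70 pairs, with a median ratio of 0.960, and in the window just before it in 9 of 15, with 1.01. A KP1 peak wider than its KP22 partner was thus more common in the stretch than in the windows on either side. KP1 peaks with a KP22 partner were also wide just after the segment. In the 20 pairs of the 3 steps after it, the medians were 620.5 bases in KP1 and 477 in KP22, with a median ratio of 1.06. In the pairs of the stretch they were 533.5 and 220.5 bases. Over all KP1 peaks of those 3 steps, with or without a partner, the medians by step were 217, 299 and 165 bases. The stretch was set by KP1 density, and other windows with wide KP1 peaks were not compared in this way.

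Among pairs of the stretch with 1 KP22 peak, the KP1 peak from 118539928 to 118540935 had 1008 bases and its KP22 partner, from 118540231 to 118540423, had 193. The KP1 peak from 119844395 to 119845292 had 898 bases and its partner, from 119844691 to 119844871, had 181. The KP1 peak from 119835620 to 119836358 had 739 bases, and its partner from 119835973 to 119836131 had 159, the narrowest width in the KP22 list. The 2 pairs of the stretch with the wider peak in KP22 lay side by side. They had 291 bases in KP1 against 373 in KP22, from 119576010 to 119576390, and 240 against 250, from 119576535 to 119576809. Outside the stretch, the pair from 116712271 to 116713236 had 966 bases in KP1 and 173 in KP22, and the pair from 117603571 to 117603870 had 192 in KP1 and 300 in KP22. Pairs in both directions thus occurred in the part before the stretch.

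**Figure D5:**
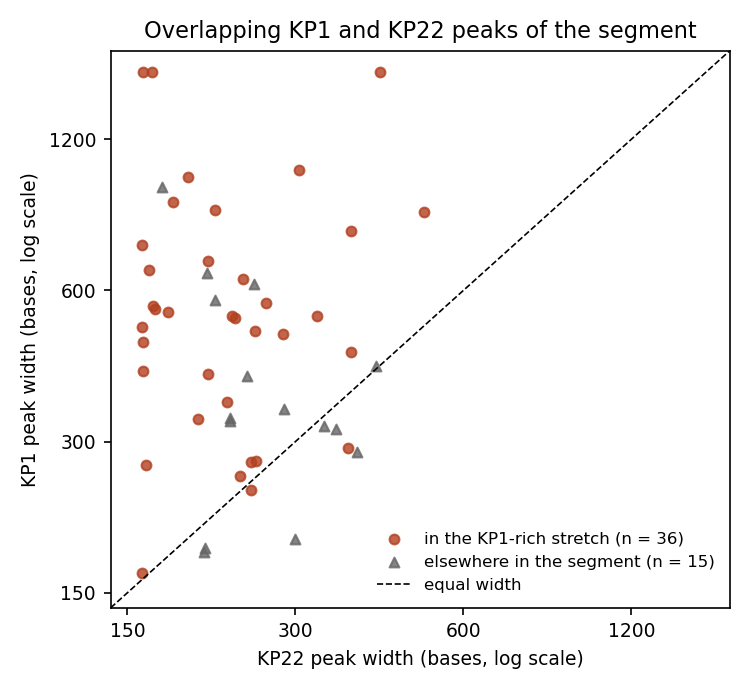
Width of the KP22 peak (x axis) and of the overlapping KP1 peak (y axis) in bases, both on a log scale, for the 51 pairs of the segment, with circles for the KP1-rich stretch, triangles for the rest and a dashed line for equal width. Of the 36 circles, 34 lie above the line, against 9 of the 15 triangles.

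By covered bases, the KP1 peaks of the segment summed to 97.1 kb, 1.42% of all bases under KP1 peaks, of which 80.8 kb lay in the stretch. The KP22 peaks summed to 13.4 kb, 0.517% of all bases under KP22 peaks, of which 8.60 kb lay in the stretch. Beside these sums, the number of peaks and their width both differed between the lines, as given above. Which of the 2 KP1 pulldown libraries carries these peaks, and whether the 16T line has them too, was not tested.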

How the data were processed

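Nfib pulldown and input libraries of 3 mouse lines, 12 in all, were sequenced. The submitters' processing notes list Bowtie2, MACS2, DESeq2, DESeq and the build mm9, but no roles or order. How peaks were called, on which pool of libraries and with which duplicate rule is given in none of the sources used here, and these choices affect peak counts and widths. The deposited KP1 and KP22 lists give a start and an end per peak and a blank score. The authors' deposited table of merged regions carries no positions and was not used. Genes and DNA sequence at these positions were not analysed here, because the tables at hand follow another build than mm9.

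Widths are end minus start, and printed starts count from 1. Sharing 1 base counted as overlap. Windows of 7.4 Mb and steps of 200 kb ran over chromosomes 1 to 19 up to the last peak, empty ones included. The KP1-rich stretch was the longest run of steps at or above the 95th percentile, with single lower steps allowed, searched to 5 Mb beyond the segment. Computations used scipy 1.17.1, numpy 2.4.6, pandas 2.3.3 and matplotlib 3.10.9 under Python 3.11.15. Edge finding and overlaps were tested on simulated data. No test between lines was made, since each has 1 list. Named were the 10 widest peaks per line (in part as ranges), the 5 fullest steps (with ties), the peaks at the edges and the widest shared pair. The groups within 10 kb, the other pairs, the runs of steps and the KP22 peaks without a partner were picked after their values were seen. The segment, lists and rules were chosen with earlier results of these data known. Alternatives changed the width minimum, the placing and joining of peaks, the denominators, the overlap rule and the steps.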

Additional observations from a re-analysis of the deposited data

How the results depend on the processing

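Of 38 alternative values, 30 stayed close to the main ones, 8 moved and 0 reversed. With peaks of at least 300 bases only, the segment held 128 KP1 and 12 KP22 peaks and the ratio of shares was 3.45 (1.91 to 6.86), where fewer peaks can count by construction. Under the other alternatives this ratio ran from 1.83 with peaks within 1 kb joined to 2.10 with peaks of at least 200 bases. A reciprocal overlap of at least 50% left 9.81% of the KP1 and 47.3% of the KP22 peaks shared, against 22.2% and 54.6% of the whole lists, so the KP22 share was no longer above that of its list under this rule, while it stayed at 92.7% with 50% of the shorter peak. This rule asks for peaks of similar width. The left edge of the stretch lay between 118 and 118.2 Mb under the other step settings, and the right edge at 120 Mb with steps of 100 kb and between 120.6 and 121 Mb otherwise. A run of peaks with the largest KP1 excess over KP22, with no demand on density, reached from 115.7 to 125.8 Mb, beyond both edges, which were set by KP1 density alone. With pairs of 1 KP1 and 1 KP22 peak only, chosen after seeing the data, the width ratio was 1.84 and KP1 was wider in 83.3% of 48 pairs. No paired analysis was possible because the lists hold no value per library, and leaving out a replicate could not be run for the same reason.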
